A study of Homo sapiens with 8 samples.

Results

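The 39 HOX cluster genes were followed in RNA sequenced from 4 lines of SKOV3 cells, a long-established culture grown from a human ovarian carcinoma. They were taken by name: every row of the deposited count table whose Ensembl identifier carries a symbol made of HOXA, HOXB, HOXC or HOXD and a number, 39 of 67008 genes. The lines were the parental SKOV3 culture, the empty-vector clone EV 1B9, and 2 clones in which PDE10A, a phosphodiesterase that degrades cAMP and cGMP, was knocked out, KO 5H5 and KO 2F4. All were grown in the same serum-containing medium without treatment, and each line gave 2 libraries from separate culture passages, so 4 control libraries stood against 4 knockout libraries. EV 1B9, KO 5H5 and KO 2F4 are clones, so the change that a vector or an edit brings and the clone's own state cannot be told apart from 1 clone alone.

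HOX genes encode homeodomain transcription factors that give cells their position along the body axis. They lie in 4 clusters, HOXA on chromosome 7, HOXB on 17, HOXC on 12 and HOXD on 2, and members with the same number in different clusters form a paralog group. Genes at the low-numbered end of a cluster are active early and far forward in the embryo, those at the high-numbered end later and further back, and the Müllerian duct, from which the female reproductive tract forms, uses HOXA9, HOXA10, HOXA11 and HOXA13 in that order along its length. Polycomb proteins keep unused stretches of a cluster silent through H3K27 methylation, retinoic acid opens the low-numbered end, and the homeodomain proteins of the PBX, MEIS and PKNOX families bind DNA together with HOX proteins.

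The clusters also hold microRNA genes whose products pair with HOX transcripts, and these sequences are shown because the site in HOXB8, the HOX gene with the highest level here, and the seeds they share tie them to the members described. Sequences are from RefSeq (GRCh38.p14), written 5′ to 3′, with the seed, bases 2 to 8, in capitals. The gene MIR10A at chr17:48579904-48579926 (minus strand) lies within the annotated spans of HOXB3 and HOXB4. MIR196A1 at chr17:48632532-48632553 (minus strand) lies between HOXB9 and HOXB13, within the long annotated span of HOXB7, and MIR196A2 at chr12:53991762-53991783 gives the same mature sequence. MIR196B at chr7:27169528-27169549 (minus strand) lies within the annotated span of HOXA9. miR-196a and miR-196b share 1 seed.
miR-10a-5p: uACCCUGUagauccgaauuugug
miR-196a-5p: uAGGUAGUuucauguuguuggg
miR-196b-5p: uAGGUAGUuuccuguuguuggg
HOXB8 3′ UTR site: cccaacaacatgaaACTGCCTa
The HOXB8 site, at chr17:48612770-48612791 on the minus strand (GRCh38), pairs with miR-196a-5p over 22 bases, with 21 Watson-Crick pairs, 1 G:U pair at base 5 of the microRNA and 0 unpaired bases. Its capitals mark the 7 bases that face the seed. An exact match to the miR-196 seed, the letters ACTACCT on the transcript strand, was in the longest coding transcript's 3′ UTR of 8 of 39 HOX genes (20.5%), against 6.97% of 19033 genes, without matching for UTR length. Those 8 were HOXA5, HOXA7, HOXA9, HOXB1, HOXB6, HOXB7, HOXB13 and HOXC8. The miR-10 seed match, ACAGGGT, was in 3 of 39 (7.69%, HOXA3 and HOXB3 among them), against 12.4%. These matches describe letters only, since the libraries do not measure mature microRNAs: MIR10A, MIR10B, MIR196A2 and MIR196B were at 0 in all 8 libraries, and MIR196A1 was between 0 and 1.87 CPM.

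Levels are counts scaled to a common library size (CPM) by TMM, a trimmed mean that sets most genes equal between libraries. Where genes are compared with each other the level is CPM per kb of exon. Libraries are written with their line and number, and values of a line are given for library 1 and then library 2. Counts assigned to genes were 15483683 to 28648044 per library. Reads without a single gene made up 24.1% to 44.6% of all counted reads, and 2 libraries stood apart, parental 1 with 10.0% of reads outside annotated genes and KO 2F4 2 with 5.51%, against 1.48% to 2.67% in the other 6. Read levels also moved with GC content: the rank correlation of a gene's GC content with its deviation from the mean of the libraries was lowest in EV 1B9 2 (-0.496) and highest in KO 2F4 2 (0.441), and HOX genes had a median GC content of 55.3% against 49.1% of tested genes. PDE10A itself was at 9.17 and 2.45 CPM in the parental line, 5.27 and 8.94 in EV 1B9, 0.222 and 0.424 in KO 5H5, with 0.192 and 2.32 in KO 2F4. Every knockout library was below every control library, by a narrow margin at KO 2F4 2 and parental 2, and the difference did not pass (log2 fold change -3.07, SE 0.84, edgeR adjusted p = 0.0988; without KO 2F4 2 it did, at -4.42, adjusted p = 0.0125). Of 10 markers of epithelial ovarian cancer, KRT7, KRT8, KRT18, PAX8 and ERBB2 were between 192 and 7048 CPM in every library, and MSLN, MUC16, WT1, EPCAM and CDH1 were lower, CDH1 at 0 to 5.22 CPM. EPCAM was at 2.06 to 9.54 CPM in controls and 0.1497 to 1.09 in knockouts, the 1 of these 10 called between them (log2 fold change -3.16, SE 0.69, adjusted p = 0.041), and it did not pass when any single library other than parental 1 was left out (adjusted p of 0.0589 to 0.138). Among the 4 lines, 4 of the 10 differed, against 7.14% of all genes. The 7 haematopoietic markers summed to at most 1.83 CPM (CD3E and LYZ at 0) and the 5 endothelial markers to at most 5.66 CPM. The 6 fibroblast genes summed to 36.7 to 150.5 CPM in controls and 6.08 to 1942 CPM in knockouts, mostly COL1A1. Of 4 tested, 2 were higher in knockouts (COL1A1 and PDGFRB) and 2 lower (COL1A2 and LUM), with 0 called. COL1A1 was lower in KO 2F4 than in KO 5H5 (log2 fold change -6.32, edgeR adjusted p = 0.0274), 1 of 4 called there against 0.392% of all genes. Among the lines 3 of these 4 genes differed, where 7.14% of all genes did. Their part in the results was not tested.

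SKOV3 used the HOXB cluster. It held 87.8% of the 91655 reads counted on HOX genes over all libraries, and between 81.5% and 90.9% in each single library. HOXD held 9.49% (6.15% to 14.4%), HOXA 2.46% (1.46% to 3.19%) and HOXC 0.247% (0% to 1.69%). By position, paralog groups 1 to 3 took 17.98%, groups 4 to 8 62.5% and groups 9 to 13 19.5%, and the 5 genes from HOXB4 to HOXB8 alone took 60.6%. The summed HOX level was 565 ± 84.9 CPM in controls (SD, n = 4) and 461 ± 98.4 in knockouts, with a lowest value of 322 in KO 2F4 1 and a highest of 684 in EV 1B9 1.

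**Figure D1:**
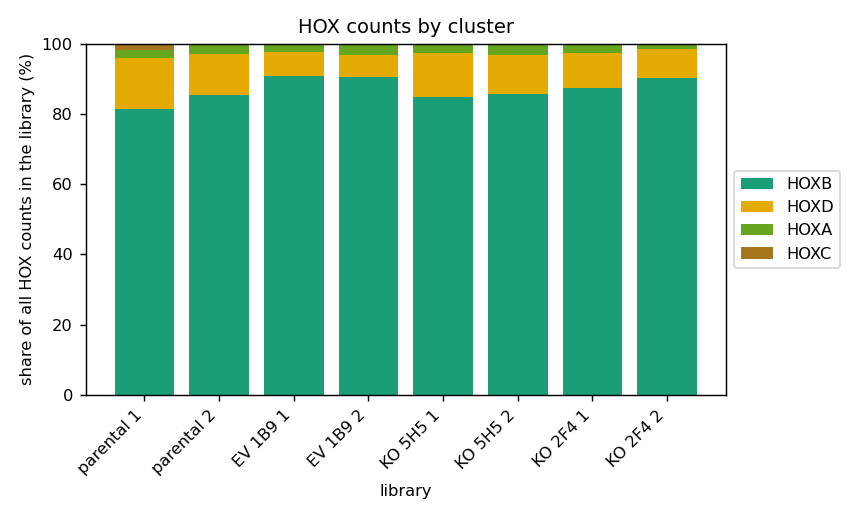
Share of all HOX counts (vertical axis, %) held by each cluster in each of the 8 libraries (horizontal axis), as stacked bars. HOXB fills 81.5% to 90.9% of every bar and HOXC at most 1.69%.

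Of the 39 genes, 22 reached a mean of 1 CPM in at least 1 line, which is the level used here to call a gene measured. They included HOXA2, HOXA3, HOXA5, HOXA10 and HOXA13, HOXB2 to HOXB9 and HOXB13, HOXC8, and HOXD1, HOXD3, HOXD4, HOXD8, HOXD9 and HOXD13. Without parental 1 and KO 2F4 2 the number was 20. Of the rest, 2 had no count in any library, HOXC5 and HOXD10, and 9 of the 39 stayed under 10 counts in every library. One library's limit for a count of 0, taken as 3 counts, lies between 0.0864 and 0.229 CPM, and over all 8 libraries it is 0.0171 CPM. These limits cover counting error only. A count of 0 does not by itself show absence in this table, since PBX2, RXRB and the Polycomb gene RING1 were also listed at 0 in every library.

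Per kb of exon, HOXB8 led with a mean of 57.9 ± 17.8 CPM per kb (SD, n = 8 libraries), followed by HOXB7 (42.5 ± 28.6), HOXB2 (32.7 ± 7.37), HOXB5 (28.8 ± 13.6), HOXD9 (20.9 ± 7.80), HOXB9 (15.9 ± 4.47) and HOXB6 (15.2 ± 6.50). HOXB4 (6.20 ± 1.19), HOXB13 (4.15 ± 1.58), HOXD8 (2.16 ± 1.18), HOXD13 (1.73 ± 0.80) and HOXB3 (1.35 ± 0.55) came next, and every HOXA gene was at or below 0.997. In this order of 22 genes, the SD ranges of neighbours met in all but 1 of 21 pairs, and that pair was HOXB6 and HOXB4. Along HOXB the level per kb therefore did not follow gene number: it was high at HOXB2, low at HOXB3, and high again from HOXB5 to HOXB9. Over the 39 genes the rank correlation between 2 libraries of a line was 0.853 to 0.955 (4 pairs) and between libraries of different lines 0.709 to 0.955 (24 pairs). The 39 genes include many near 0, and over the 9 measured HOXB genes it was 0.833 to 0.95 within lines and 0.667 to 0.967 between them. The genes of a library share its depth, so these values are a description.

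**Figure D2:**
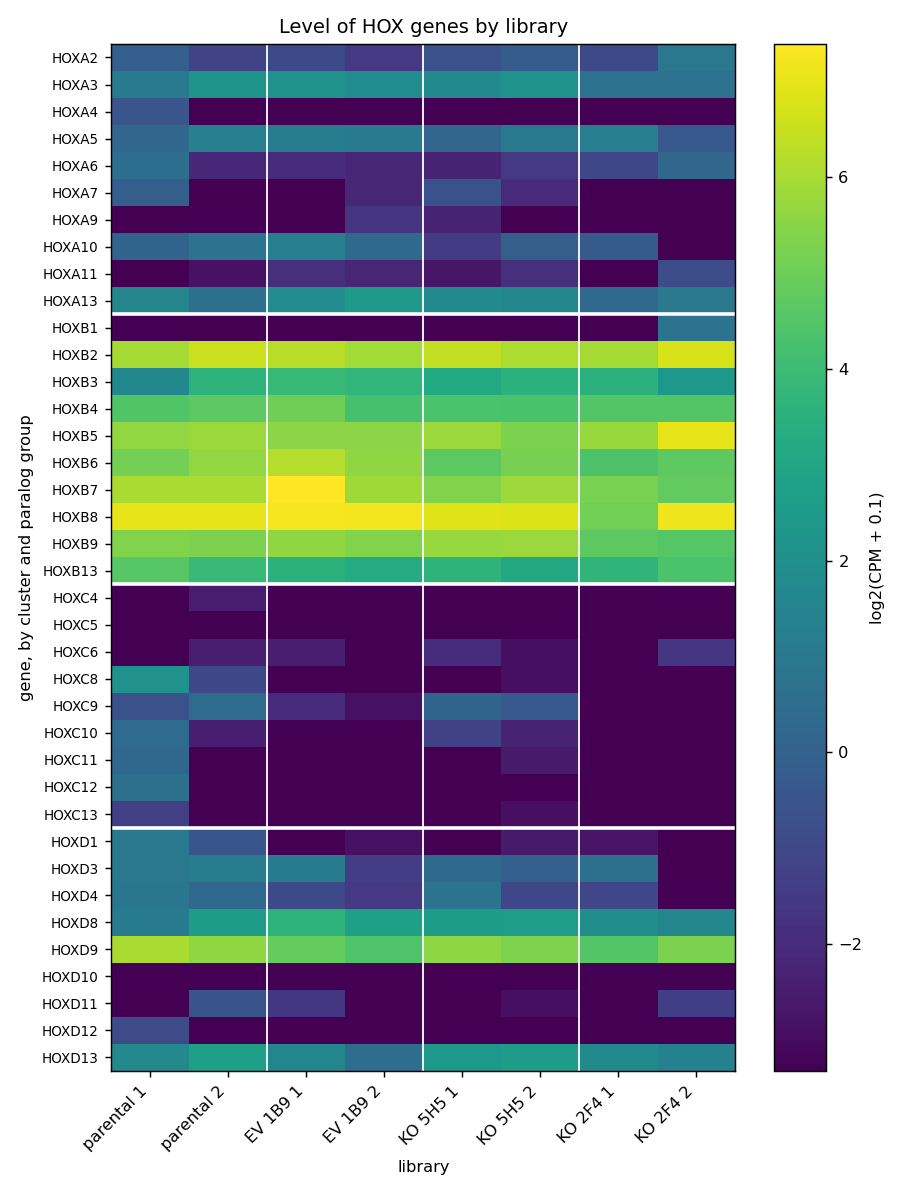
Level of HOX genes (rows, by cluster and paralog group) in the 8 libraries (columns), coloured by log2(CPM + 0.1). The block from HOXB2 to HOXB13 and the single row HOXD9 are bright in every library, HOXC rows are dark outside parental 1 except for HOXC9 and faint single values, and HOXD10 is dark throughout.

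At the low-numbered end of HOXB, HOXB1 was close to unread and HOXB2 was well read. HOXB1, which patterns the hindbrain, had 0 counts in 7 libraries and 21 counts (1.57 CPM) in KO 2F4 2, a library that stood apart. HOXB2, its neighbour, which also acts in the hindbrain, was at 62.3 and 93.8 CPM in the parental line, 75.4 and 60.4 in EV 1B9, 85.3 and 66.8 in KO 5H5, with 61.2 and 107 in KO 2F4. HOXB3 was at 3.06 and 12.0 CPM in the parental line, 15.1 and 13.2 in EV 1B9, 9.16 and 11.2 in KO 5H5, with 11.4 and 5.09 in KO 2F4. The 2 lowest HOXB3 values came from parental 1 and KO 2F4 2, and HOXB2 overlapped between all lines. Of exon bases, 7.94% in HOXB3, 17.1% in HOXB4 and 16.6% in HOXB6 are shared with other genes on the same strand, and reads there fit more than 1 gene. On either strand HOXB6 shares 32.9%.

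The centre of the cluster carried the most RNA. HOXB4, which expands blood stem cells when overproduced, was the steadiest, at 22.2 and 25.4 CPM in the parental line, 33.2 and 19.2 in EV 1B9, 20.6 and 19.980 in KO 5H5, with 22.9 and 22.8 in KO 2F4. HOXB5 was at 50.1 and 54.2 CPM (parental), 46.5 and 46.1 (EV 1B9), 55.2 and 38.2 (KO 5H5) and 54.0 and 126 (KO 2F4). HOXB5 was near 50 CPM in 7 of the 8 libraries, ranging from 38.2 to 55.2, and only KO 2F4 2 was above, at 126 CPM. HOXB6 was at 35.0 and 49.9 CPM in the parental line, 72.5 and 49.1 in EV 1B9, 26.0 and 36.9 in KO 5H5, with 21.1 and 26.4 in KO 2F4. Both KO 2F4 libraries and KO 5H5 1 were below every control library, but KO 5H5 2 was above parental 1, so the classes overlapped. HOXB7, which several tumour types overproduce, was at 64.6 and 65.3 CPM in the parental line, 168 and 58.8 in EV 1B9, 41.1 and 56.8 in KO 5H5, with 37.1 and 28.3 in KO 2F4. All 4 knockout libraries were below all 4 controls, EV 1B9 1 stood far above the rest, and the other 7 lay between 28.3 and 65.3 CPM. HOXB8, which holds mouse myeloid cells in an immature state when overproduced, was at 126 and 126 CPM in the parental line, 150.2 and 145 in EV 1B9, 115 and 113 in KO 5H5, with 35.0 and 139.7 in KO 2F4. Of these, 7 libraries fell between 113 and 150.2 CPM and KO 2F4 1 stood alone at 35.0.

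At the high-numbered end, HOXB9 was at 40.8 and 38.2 CPM in the parental line, 49.4 and 41.3 in EV 1B9, 53.7 and 54.3 in KO 5H5, with 26.1 and 23.9 in KO 2F4. Both KO 2F4 libraries were below the other 6, and both KO 5H5 libraries were above all others. HOXB13, which in the adult marks prostate and distal colon, was at 24.5 and 14.6 CPM in the parental line, 11.6 and 9.42 in EV 1B9, 12.6 and 8.79 in KO 5H5, with 13.0 and 20.5 in KO 2F4. Its 2 highest values came from parental 1 and KO 2F4 2. Variation between libraries was of ordinary size for these 9 genes: their median coefficient of variation over the 8 libraries was 38.1%, and 41.3% over 4817 other genes between the same lowest and highest mean.

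**Figure D3:**
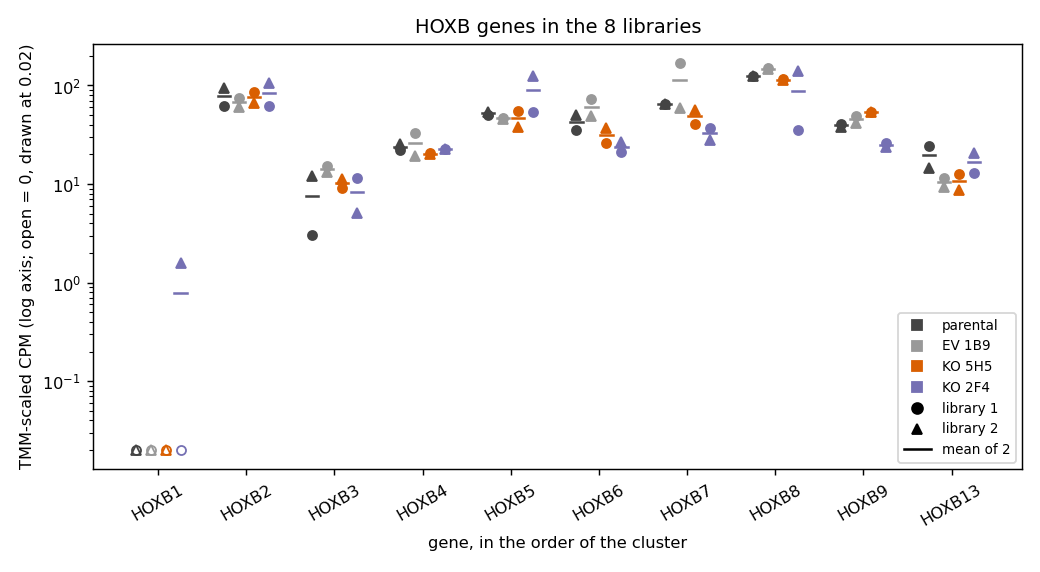
Level of the 10 HOXB genes in each library (TMM-scaled CPM, log axis); circles are library 1, triangles library 2, bars the mean of the 2 and colours the lines. HOXB1 has counts in KO 2F4 2 alone (open symbols are 0, drawn at 0.02), HOXB7 in EV 1B9 1 is at 168 CPM, and HOXB8 in KO 2F4 1 is at 35.0 CPM.

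HOXD was read mainly as HOXD9. HOXD9, a paralog of HOXB9, was at 64.7 and 49.0 CPM in the parental line, 28.8 and 21.4 in EV 1B9, 47.1 and 39.7 in KO 5H5, with 23.2 and 39.003 in KO 2F4. The parental line had the 2 highest values and EV 1B9 had the lowest, with 1 KO 2F4 library among them. Its neighbours on either side were far lower. HOXD8 was at 1.99 and 5.94 CPM in the parental line, 12.1 and 6.70 in EV 1B9, 5.99 and 6.11 in KO 5H5, with 3.78 and 2.92 in KO 2F4, EV 1B9 1 highest and parental 1 lowest. HOXD10, on the other side of HOXD9, had 0 counts in all 8 libraries, HOXD11 had at most 13 counts, and HOXD12 had 6 counts in parental 1 and 0 elsewhere. HOXD13, at the end of the cluster and known for digit and genital patterning, was at 3.21 and 6.56 CPM (parental), 2.96 and 1.34 (EV 1B9), 5.11 and 5.90 (KO 5H5) and 3.35 and 2.55 (KO 2F4). Both EV 1B9 libraries were below the parental and KO 5H5 libraries, and KO 2F4 overlapped EV 1B9 and the parental line.

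The start regions of HOXD8 and HOXD10 are shown because the pair flanks HOXD9, and HOXD8 had 1142 counts in all where HOXD10 had 0. Each is 300 bases, 250 before and 50 after the RefSeq start, on the plus strand of GRCh38.p14, at chr2:176129455-176129754 for HOXD8 and chr2:176116528-176116827 for HOXD10, with CG dinucleotides in capitals.
HOXD8: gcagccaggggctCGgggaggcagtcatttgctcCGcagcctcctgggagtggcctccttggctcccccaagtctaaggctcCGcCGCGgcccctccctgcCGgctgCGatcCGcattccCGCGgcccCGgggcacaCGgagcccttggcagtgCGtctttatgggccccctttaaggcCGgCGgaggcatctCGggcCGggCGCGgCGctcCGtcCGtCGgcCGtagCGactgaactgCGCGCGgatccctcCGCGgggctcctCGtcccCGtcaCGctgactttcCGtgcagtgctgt
HOXD10: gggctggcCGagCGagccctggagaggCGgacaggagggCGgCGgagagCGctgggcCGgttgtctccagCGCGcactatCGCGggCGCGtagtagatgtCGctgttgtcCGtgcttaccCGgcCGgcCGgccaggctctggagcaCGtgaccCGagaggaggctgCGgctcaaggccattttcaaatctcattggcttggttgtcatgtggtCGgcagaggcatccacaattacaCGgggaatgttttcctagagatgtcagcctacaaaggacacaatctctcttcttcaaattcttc
HOXD8 holds 34 CG dinucleotides and HOXD10 holds 23. RefSeq start regions were matched for 20 of the 39 genes, 27 regions in all, with a median of 22 CG dinucleotides (0 to 44) against 14 over 35116 regions. HOXB2 to HOXB9, HOXB13 and HOXD9 had no matched region, so the regions leave out the HOX genes with the highest levels per kb. HOXA3 had several regions, and HOXC4 and HOXC5 shared 1. The PBX and HOX composite motif, searched as TGATNNAT on both strands, was in 3 of the 27 (11.1%; HOXA2, HOXB1 and HOXD11), against 7.4% of all regions. HOXD8 and HOXD10 had more CG dinucleotides than the median of all regions, and HOXA13, with 44, was at 0.55 CPM per kb.

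The low-numbered HOXD genes had few reads. HOXD1 was at 1.83 and 0.625 CPM (parental), 0 and 0.0406 (EV 1B9), 0 and 0.0706 (KO 5H5) and 0.0479 and 0 (KO 2F4), so that it met the level through the parental line alone. HOXD3 was at 1.83 and 2.23 CPM in the parental line, 1.99 and 0.284 in EV 1B9, 1.22 and 0.882 in KO 5H5, with 1.44 and 0 in KO 2F4. HOXD4 was at 1.76 and 1.16 CPM (parental), 0.432 and 0.244 (EV 1B9), 1.61 and 0.388 (KO 5H5) and 0.383 and 0 (KO 2F4). HOXD3 and HOXD4 are uncertain, because 62.2% and 80.5% of their exon bases are shared with other genes on the same strand, where the counting assigns no read to either, and both were at 0 in KO 2F4 2.

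HOXA, the cluster that patterns the Müllerian duct, was low throughout. Among low-numbered genes, HOXA2 was at 0.841 and 0.357 CPM (parental), 0.432 and 0.244 (EV 1B9), 0.555 and 0.777 (KO 5H5) and 0.431 and 1.80 (KO 2F4), and HOXA3 at 2.06 and 4.55 CPM (parental), 4.26 and 3.57 (EV 1B9), 3.27 and 4.45 (KO 5H5) and 1.53 and 1.497 (KO 2F4). KO 2F4 2 had the lowest HOXA3 value and the highest HOXA2 value. HOXA5, whose loss is described in breast cancer, was at 1.07 and 2.41 CPM in the parental line, 2.22 and 1.99 in EV 1B9, 1.05 and 1.91 in KO 5H5, with 2.30 and 0.674 in KO 2F4. HOXA10, which in the uterus prepares the lining for implantation, was at 0.994 and 1.61 CPM in the parental line, 2.27 and 1.22 in EV 1B9, 0.278 and 0.847 in KO 5H5, with 0.718 and 0 in KO 2F4. Its highest knockout value, 0.847, was below its lowest control value, 0.994, and KO 2F4 2 had 0 counts. HOXA13, the gene of the lowest part of the duct, was at 2.83 and 1.47 CPM in the parental line, 3.45 and 5.44 in EV 1B9, 3.39 and 2.93 in KO 5H5, with 1.15 and 1.87 in KO 2F4. EV 1B9 2 was highest. HOXA9 and HOXA11, the remaining duct genes, had at most 5 and 6 counts in a library, and HOXA4, HOXA6 and HOXA7 reached at most 1.38 CPM. HOXA4 had 8 counts in parental 1 and 0 elsewhere, HOXA6 had 18 in parental 1 and 14 in KO 2F4 2 against at most 8 elsewhere, and HOXA7 had 11 in parental 1, 10 in KO 5H5 1 and at most 4 elsewhere.

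HOXC was close to unread, and 116 of its 226 counts were in 1 library, parental 1. HOXC8, the only HOXC gene to reach the level, had 55 counts in parental 1 (4.20 CPM), 9 in parental 2, 1 in KO 5H5 2 and 0 in the other 5. HOXC9 followed another pattern, with 7 and 29 counts in the parental line, 18 and 19 in KO 5H5, 5 and 1 in EV 1B9 and 0 in both KO 2F4 libraries. HOXC10 had 16 and 2 counts in the parental line and 6 and 3 in KO 5H5, with 0 in EV 1B9 and KO 2F4. HOXC11 and HOXC12 had 15 and 19 counts in parental 1, HOXC13 had 4, and HOXC4 and HOXC6 had at most 3 in any library. HOTAIR, the noncoding RNA of this cluster, was at 0 in all 8 libraries.

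The comparison of knockout with control asked whether loss of PDE10A goes with a change of HOX expression. None of the 20 HOX genes that passed the filter on low counts was called at an adjusted p of 0.05 (edgeR quasi-likelihood test, Benjamini-Hochberg), against 1.42% of 13508 genes. At an unadjusted p of 0.05 it was 2 of 20, HOXB7 and HOXB6, against 15.1% of all genes. DESeq2 called 0 HOX genes, against 785 of all 13508. HOXB7 had the smallest adjusted p: 89.1 ± 52.5 CPM in controls (SD, n = 4) and 40.8 ± 11.9 in knockouts, a log2 difference of -1.13 (SE 0.40, 95% interval -1.996 to -0.26, adjusted p = 0.204). HOXB6 was at 51.6 ± 15.5 CPM in controls and 27.6 ± 6.67 in knockouts, a log2 difference of -0.90 (SE 0.33, interval -1.62 to -0.19, adjusted p = 0.221). Without EV 1B9 1 the HOXB7 value was -0.60 (adjusted p = 0.612). In RNA from whole cultures, fewer cells with a transcript and less of it per cell cannot be told apart. P-values of this comparison measure the spread within each class of 4 libraries, 2 lines and their passages together.

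The other 18 tested genes had log2 fold changes from -1.68 (HOXA10, SE 0.92, adjusted p = 0.412) to 0.93 (HOXA2, SE 0.83, adjusted p = 0.627), with adjusted p of 0.412 to 0.915. Of all 20, 16 were below 0, and their median was -0.40, where the median of all 13508 genes was -0.14. By cluster it was 5 of 6 HOXA genes, 7 of 9 HOXB genes and 4 of 5 HOXD genes below 0. Groups did not overlap in 2 genes, HOXB7 and HOXA10, against 10.5% of all genes. The 95% intervals take the 4 libraries of a class as independent, though these are passages of 2 lines. They therefore do not bound the effect of the knockout. For the well-read genes the intervals ran from -0.53 to 0.80 (HOXB2), -0.90 to 0.47 (HOXB4), -0.86 to 0.66 (HOXB9) and -1.28 to 0.39 (HOXB8). For genes with few reads they were wide, as in HOXD3 (-2.93 to 1.28) and HOXA10 (-3.67 to 0.30). How much of this width came from depth and how much from spread between libraries was not tested.

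**Figure D4:**
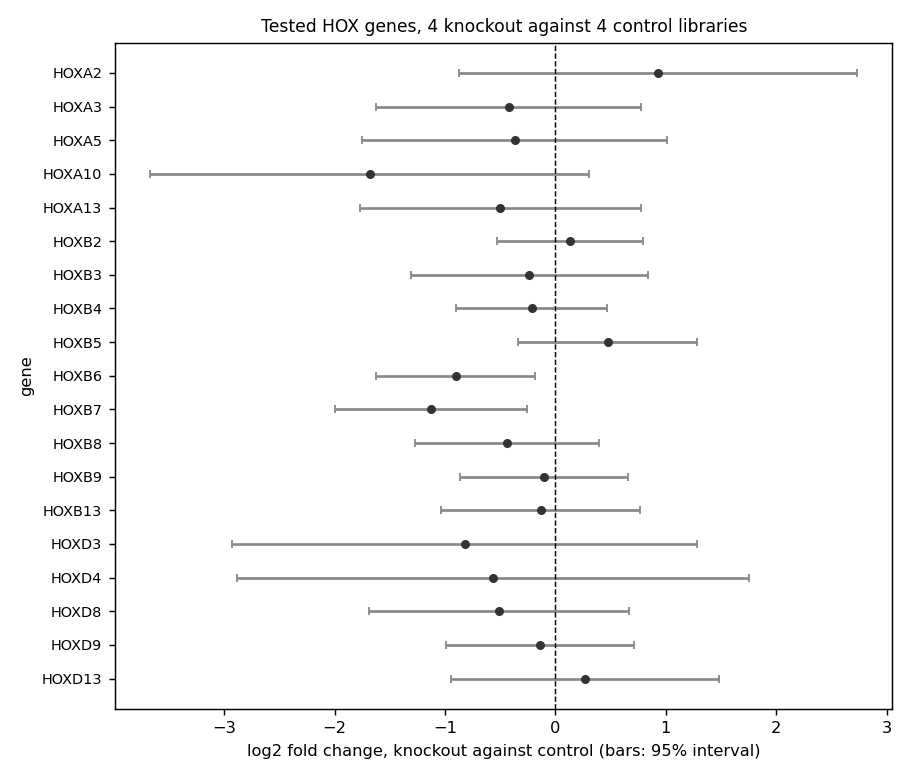
Log2 fold change of knockout against control (horizontal axis) for tested HOX genes (vertical axis), with 95% intervals as bars. The intervals of HOXB6 and HOXB7 lie below 0, the others shown include 0, and 0 of the 20 tested genes passed the adjusted threshold.

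Among the 4 lines, in 1 test with a mean for each line, 0 of 24 HOX genes were called, against 7.14% of 15551 genes. At an unadjusted p of 0.05 it was 5, HOXB6, HOXB7, HOXC9, HOXD1 and HOXD9, against 25.3%. DESeq2 called HOXB7 (adjusted p = 0.0329), the 1 HOX gene called, against 2932 of all 15551 genes. P-values of comparisons between lines measure the spread between the 2 passages of a line, not between independent clones.

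Between single lines, 1 HOX gene was called in 1 of 6 comparisons. HOXB7 was lower in KO 2F4 than in EV 1B9 (log2 fold change -1.72, SE 0.49, adjusted p = 0.0344), 1 of 24 tested genes, where 13.0% of all genes were called and 6.11% were called lower. At an unadjusted p of 0.05 it was 4 of 24, against 30.9%. The call rested on EV 1B9 1: without that library the value was -0.87 (adjusted p = 0.429), and without KO 2F4 2 it was -1.52 (adjusted p = 0.0798). HOXB6, next to it, was at -1.30 (SE 0.43, adjusted p = 0.0581). With counts corrected for GC content and length, 4 of 24 HOX genes were called in this comparison, against 1940 of all 15551 genes. They were HOXB6 (-1.84, SE 0.35, adjusted p = 0.005), HOXB7 (-1.75, SE 0.34, adjusted p = 0.00538), HOXB9 (-1.32, SE 0.30, adjusted p = 0.0124) and HOXD8 (-2.10, SE 0.61, adjusted p = 0.0424). The median of all genes in this comparison was -0.13 without and 0.07 with the correction.

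KO 5H5 against EV 1B9 called 0 of 24 in edgeR (4.38% of all genes) and 3 at an unadjusted p of 0.05 (17.8%). Its HOXB7 value was -1.09 (adjusted p = 0.249) and its HOXB6 value -0.84 (adjusted p = 0.315). Under the GC and length correction HOXB6 was called (-1.27, SE 0.34, adjusted p = 0.0468), 1 of 24 against 972 of all 15551 genes. Both clones are set against the same 2 EV 1B9 libraries, 1 of which held the highest HOXB7 level, so the clones' values share them. Against the parental line, KO 5H5 called 0 of 24 (0.740% of all genes), and 0 at an unadjusted p of 0.05 (8.86%), with HOXB7 at -0.38 and HOXB6 at -0.41. KO 2F4 against the parental line also called 0 of 24 (1.34% of all genes), and 2 at an unadjusted p of 0.05 (13.8%), with HOXB7 at -1.004 and HOXB6 at -0.87. The 2 knockout clones themselves differed in 0 of 24 (0.392% of all genes), or 2 at an unadjusted p of 0.05 (10.7%), HOXB9 having the smallest adjusted p (log2 fold change -1.16 for KO 2F4 against KO 5H5, adjusted p = 0.299).

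The 2 controls differed in 0 of 24 as well (1.34% of all genes), or 2 at an unadjusted p of 0.05 (21.7%). DESeq2 called 0 HOX genes in either clone against the parental line, between the clones and in KO 5H5 against EV 1B9. It gave no adjusted p to 4 HOX genes between the clones and to 1 in each of the others, so these could not be called. HOXD9 was at 25.1 ± 5.24 CPM in EV 1B9 (SD, n = 2) and 56.8 ± 11.2 in the parental line, a log2 fold change of -1.25 (adjusted p = 0.132). DESeq2 called it (adjusted p = 0.0472), the 1 HOX gene called there, against 1356 of all 15551 genes. HOXC9 was at 0 in both KO 2F4 libraries, under 0.225 CPM, the larger of the 2 limits that 3 counts set, against 0.914 CPM in the parental line and 0.835 in KO 5H5. With at most 29 counts in a library it did not pass in KO 2F4 against parental (adjusted p = 0.217) or against KO 5H5 (adjusted p = 0.343).

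**Figure D5:**
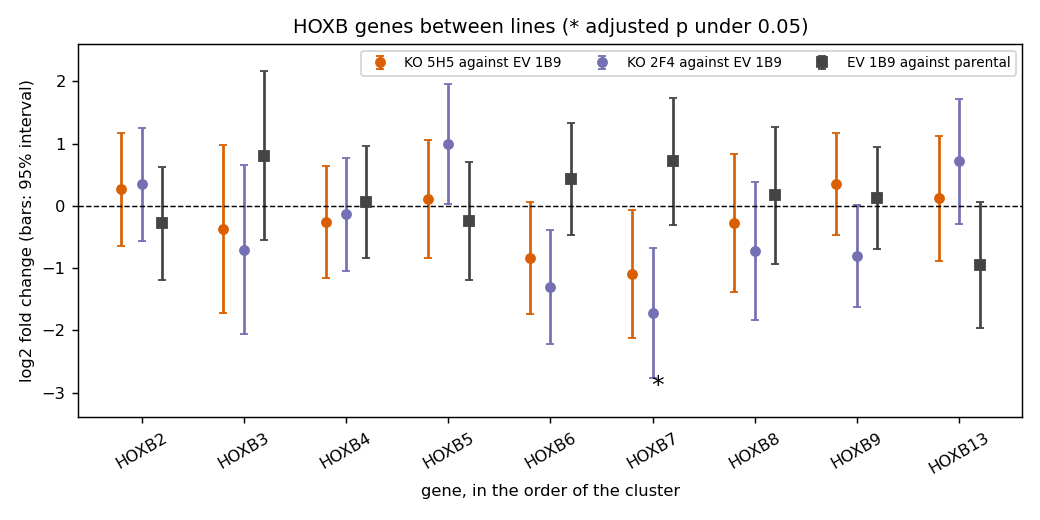
Log2 fold changes of the 9 tested HOXB genes (horizontal axis, in cluster order) for KO 5H5 and KO 2F4 against EV 1B9 and for EV 1B9 against the parental line, with 95% intervals as bars. The star marks the only adjusted p under 0.05, HOXB7 in KO 2F4 at -1.72, and HOXB6 beside it is at -1.30.

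The genes that act with or on the clusters were read in the same comparisons, from lists chosen by function. In knockout against control, 0 genes were called in each of 6 lists: 8 tested noncoding RNAs of the clusters, 15 genes that flank them, 7 cofactors of the PBX, MEIS and PKNOX families, 27 Polycomb genes, 23 trithorax and demethylase genes, and 11 genes of CDX and retinoic acid signalling. At an unadjusted p of 0.05 these lists had 0, 0, 2, 2, 4 and 2 genes, in that order, against 15.1% of all genes. Among cofactors, MEIS1, which stabilises HOX binding, was at 2.98 and 3.66 CPM (parental), 8.58 and 7.31 (EV 1B9), 0.444 and 0.847 (KO 5H5) and 0.862 and 3.29 (KO 2F4), which gives a log2 fold change of -2.07 (adjusted p = 0.172, SE 0.69). MEIS1 passed without KO 2F4 2 (-2.88, adjusted p = 0.0483). Of 19 other fits and omissions it passed in 2, both without that library, and its value ran from -3.07 to -1.35. PKNOX1 was at 10.5 and 12.0 CPM (parental), 29.9 and 16.4 (EV 1B9), 6.33 and 8.22 (KO 5H5) and 9.38 and 4.94 (KO 2F4) (log2 fold change -1.26, SE 0.43, adjusted p = 0.19). MEIS1 was lower in KO 5H5 than in EV 1B9 (-3.49, SE 0.81, adjusted p = 0.0244), 1 of 8 cofactors called there against 4.38% of all genes, but not without KO 5H5 1 (-3.21, adjusted p = 0.191).

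Among the Polycomb genes, SUZ12, a core subunit of the H3K27 methyltransferase complex, was lower in KO 2F4 than in EV 1B9 (log2 fold change -2.72, SE 0.63, adjusted p = 0.0148), and PHF19, which guides that complex, was higher (1.52, SE 0.45, adjusted p = 0.0423). SUZ12 was at 5.04 and 7.05 CPM in the parental line, 8.38 and 24.5 in EV 1B9, 7.88 and 11.3 in KO 5H5, with 2.82 and 2.02 in KO 2F4, so its value in EV 1B9 2 was the highest. Without that library its log2 fold change was -1.70 (adjusted p = 0.165) and with the GC and length correction -1.40 (adjusted p = 0.0585), where PHF19 was at 1.02 (adjusted p = 0.0622). PHF19 also did not pass without parental 1, either EV 1B9 library or KO 2F4 2 (adjusted p of 0.059 to 0.213). The other 25 Polycomb genes did not pass there, against 13.0% of all genes. In the same comparison 3 of 16 flanking genes were lower, against 6.11% of all genes: CBX1 beside HOXB, and HIBADH and TAX1BP1 beside HOXA, with log2 fold changes of -1.29, -1.92 and -1.89 (adjusted p = 0.0407, 0.0354 and 0.0372). Without KO 2F4 2 none of these passed (adjusted p = 0.146, 0.117 and 0.0517). CBX1 also did not pass without parental 2, either EV 1B9 library, KO 5H5 2 or KO 2F4 1 (adjusted p of 0.0539 to 0.141), and TAX1BP1 was at -1.31 without EV 1B9 2 (adjusted p = 0.307).

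HAGLR, a noncoding RNA transcribed from the HOXD cluster, was at 6.57 and 6.61 CPM in the parental line, 3.34 and 2.48 in EV 1B9, 4.11 and 4.91 in KO 5H5, with 17.9 and 10.7 in KO 2F4. Its 2 highest values were the KO 2F4 libraries. It differed among the 4 lines (adjusted p = 0.0483) and was higher in KO 2F4 than in EV 1B9 (log2 fold change 2.36, SE 0.55, adjusted p = 0.0149), the 1 of 9 noncoding RNAs to pass in each test, where 7.14% and 13.0% of all genes passed. The call of KO 2F4 against EV 1B9 was lost without EV 1B9 2 (adjusted p = 0.0848) and without KO 2F4 1 (adjusted p = 0.0573). HOXB-AS3, from the centre of HOXB, was at 10.5 and 16.0 CPM (parental), 31.9 and 13.9 (EV 1B9), 22.4 and 24.6 (KO 5H5) and 10.9 and 15.3 (KO 2F4). Of the upstream genes, 2 of 11 differed among the lines, against 7.14% of all genes, and the retinoid-binding protein CRABP1 was 1 of them (adjusted p = 0.00816). It was at 20.3 and 9.51 CPM (parental), 1.15 and 1.22 (EV 1B9), 0.777 and 0.0353 (KO 5H5) and 2.68 and 2.695 (KO 2F4), highest in parental 1. CDX1 and CDX4, which switch on central HOX genes in the embryo, were at 0 in all libraries, and CDX2 was at 0.144 CPM in EV 1B9 1 and 0 elsewhere. How the counting treated strand was not stated in the sources used here, so antisense RNAs and the HOX genes they overlap are uncertain. HOXA7 and HOXD1 are examples, with 62.5% and 58.1% of exon bases overlapped on either strand.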

How the data were processed

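RNA of 8 SKOV3 cultures was made into directional libraries and read as pairs, per the labels' protocols. A single table of raw gene counts was deposited, made with HTSeq per the table's own name. Tools listed in the submitters' processing notes, with no role, are STAR 2.7.3a, DESeq2 1.26.0, HTSeq 0.11.3 and bcl2fastq 2.18.0.12, and the build is GRCh38. Neither the annotation nor the strand setting was stated in the sources used here. HTSeq leaves out reads that fit several genes (9.51% to 12.8%) or several places (10.3% to 25.1%), so genes with shared exons are under-counted. All 8 columns matched a sample by title. The 5 summary lines, 24.1% to 44.6% of counted reads, stayed out of library sizes and tests.

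From the counts, edgeR 4.0.16 in R 4.3.3 was used with TMM factors (0.779 to 1.21), filterByExpr (minimum count 10, minimum total 15), the quasi-likelihood test and Benjamini-Hochberg adjustment at 0.05 over all genes tested. Knockout against control took the libraries as 2 classes, and lines were compared with 1 mean per line and a shared spread. Standard errors are the log2 fold change divided by the root of F. Symbols named 60636 of 67008 identifiers. Coordinates, exon lengths and 3′ UTRs are from GENCODE 29 (GRCh38), microRNAs and start regions from RefSeq. The code was tested on simulated data with known changes. The 39 genes, the related lists and the markers were chosen with earlier results of these data known. Genes with a mean of 1 CPM in a line were given in every library, with up to 3 related genes of smallest p per list, plus called genes and genes named for their role, chosen after their values were seen. Some results for single genes are not reported here. Libraries of a line differed by more than sampling noise (chi-square per degree of freedom 76.0 to 171) and were counted separately. Replicate 2 is the library whose title ends in UnTx. Its meaning was not stated in the labels, which call all libraries untreated.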

Additional observations from a re-analysis of the deposited data

Results flagged for a closer look

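Among 54 groups of 4 libraries, 3 held a library far from the others, measured as its gap to the nearest divided by the whole range. Chance gives about 1 in 20 such groups for independent values from 1 normal distribution. Each group here holds libraries of 2 lines, so that rate may not hold. The groups share libraries, and sums over clusters repeat genes, so they are not independent. HOXB7 in EV 1B9 1 was at 168 CPM, with the next control at 65.3 (gap 0.940 of the range). HOXC8 in parental 1 was at 4.20 CPM, with the next control at 0.402 (0.904). HOXC8 in KO 5H5 2 was at 0.0353 CPM, a single count, with 0 in the other knockout libraries (1.000). When the others are at 0, any count gives this value, so the chance rate does not apply to it.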

How the results depend on the processing

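In knockout against control, 0 HOX genes were called under each of the 18 other fits and left-out libraries tried, and in 1 chosen after the data were seen, the omission of parental 1 and KO 2F4 2 together. The count of all called genes moved from 192 to 714 without a filter, 785 with DESeq2, 124 with the title suffix as a replicate block, 531 with GC and length offsets (300 with the block as well), 330 without both libraries, 11 with counts summed per line, 34 with limma-voom and the line as a random block, 912 with EV 1B9 alone as control and 48 with the parental line alone. It was 66 to 222 without each library in turn.

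Among the 4 lines, 0 HOX genes became 2 without a filter (HOXB7 and HOXC8), 1 with DESeq2, 3 with the offsets and 3 with offsets and block (HOXB6, HOXB7 and HOXB9), 1 without both libraries (HOXC9), and 0 to 2 without each library, HOXC8 then passing the filter. EV 1B9 against parental gave 1 with DESeq2 and 0 to 1 without a library, KO 5H5 against EV 1B9 gave 1 with the offsets, and KO 2F4 against parental gave 0 to 1 without a library. KO 2F4 against EV 1B9, 1 in the report, gave 2 without a filter and 2 with DESeq2 (HOXB6 and HOXB7), 4 with the offsets, 4 with offsets and block, and 0 to 3 without a library. The HOXB7 value there was -0.87 to -2.28 over 15 alternatives (adjusted p 0.0015 to 0.429, called in 11). DESeq2 gave no adjusted p to 7 HOX genes in EV 1B9 against parental. Of all genes, those called among the 4 lines were 2525 without a filter, 2932 with DESeq2, 1622 with the offsets and 1307 with offsets and block. In KO 2F4 against EV 1B9 they were 2470, 3390, 1940 and 1680, in that order.

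The replicate numbers did not pair the libraries: same-numbered deviations correlated at -0.234 to 0.249 over the 6 pairs of lines. With the replicate block, KO 2F4 against EV 1B9 called 0 HOX genes (HOXB7 -1.67, adjusted p = 0.0616), and the other comparisons kept 0. CBX1 and HIBADH there, and EPCAM in knockout against control, did not pass with the block (adjusted p = 0.0685, 0.0594 and 0.0766).

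Directions turned in 9 of the 20 genes of knockout against control, none of them called. With the parental line alone as control, HOXA13 was at 0.10, HOXB3 at 0.25, HOXD13 at -0.25, HOXB2 at -0.00 and HOXD8 at 0.20. With EV 1B9 alone, HOXD9 was at 0.66, HOXB13 at 0.47 and HOXD4 at 0.91. HOXB2 was at -0.09 with offsets, with or without the block. Without both libraries HOXD9 was at 0.24, HOXB13 at 0.04, HOXD4 at 0.46, HOXB9 at 0.16 and HOXB2 at -0.01. Over the omission of each library HOXD9 ran from -0.32 to 0.22, HOXB13 from -0.35 to 0.26, HOXD4 from -1.68 to 0.01, HOXB9 from -0.24 to 0.14, HOXB3 from -0.47 to 0.03 and HOXB2 from 0.02 to 0.34. The causes were not tested. The offsets moved the median of all genes from -0.14 to 0.04 in knockout against control, from -0.03 to 0.12 in KO 2F4 against parental and from -0.02 to 0.10 in KO 2F4 against KO 5H5.

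The count of 22 measured genes was 28 at 0.5 CPM, 18 at 2 CPM, 21 without TMM and 21 to 26 without a library. Few reads limit HOXC and most of HOXA and HOXD. When a library was left out, the lone one of its line was assumed to vary like the others.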
